A study of Rattus norvegicus with 183 samples.

Results

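Genes named for parts of the motile cilium were measured across dissections of the posterior ventral tegmental area. Rows were taken by name: every gene called Cfap, Dnah, Dnai, Rsph, Tekt or Drc followed by a digit, together with Foxj1, Ccdc153 and Tmem212. Of 38354 genes in the table, 85 had such a name and 53 of these reached a mean of at least 1 over all libraries on the scale log2(CPM + 1), where CPM is the count per 1000000 counts of the library. The rest, 32 genes, stayed under that mean. Ccdc153 is listed under its current symbol Drc12, which also fits the name rule, and Tmem212 is present but lay under the mean. By family, 31 of 48 Cfap genes, 8 of 13 Dnah genes, 3 of 5 Dnai genes, 5 of 7 Rsph genes, 2 of 6 Tekt genes and 3 of 4 Drc genes passed, with Foxj1 as the remaining one. At the threshold, Dnah1 lay just inside with a mean of 1.04 and Cfap74 just outside with 0.996.

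The dissected midbrain region holds many dopamine neurons, and its polyA RNA was sequenced in outbred laboratory rats of the heterogeneous stock. The labels give no treatment, genotype, sex, age or pooling, and all libraries form 1 group. Of 183 samples described, 31 were labelled as removed and not used here. Among the others the identifier in the sample title is decimal for 63 libraries, hexadecimal for 88 and of another form for 1, and what the formats stand for is not stated.

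A set of 11 libraries stood apart from its label and was kept out of the tests, except where stated. In the rest (53 decimal, 87 hexadecimal and 1 other), called the libraries with Th below, the dopamine-synthesis gene Th was at 577.2 CPM or more. In the 11 it was at most 3.47 CPM, while Slc17a7, the vesicular transporter of cortical glutamate neurons, had a median of 1970 CPM there against 4.02 CPM in the rest. Library totals ran from 15.2 to 57.2 M estimated counts (M, 1000000), so 1 CPM stands for at least 15.2 counts and 3 counts in the smallest library are 0.198 CPM. The labels mark 5 of the libraries with Th as relabelled and 12 as recovered. No pair of libraries held identical values. Correlations between genes are over all libraries with Th, and fitted slopes over the 140 of them with a decimal or hexadecimal identifier.

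A motile cilium is built on a ring of doublet microtubules around a central pair. Outer and inner dynein arms on the doublets generate the beat, radial spokes and the nexin-dynein regulatory complex pass control signals to them, and proteins inside the doublets stabilise the wall. FOXJ1 switches on this programme, together with RFX factors, and in the brain the cells best known for motile cilia are the ependymal cells that line the ventricles; astrocytes and neurons carry a single primary cilium without the beating machinery.

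The genes are called cilia-named genes here, because the markers did not settle whether they come from ependyma. Several genes of multiciliated cells were near absent. Tmem212, a gene typical of ependymal and other multiciliated cells, had a median of 0.0536 CPM, was listed at 0 in 47 of the libraries with Th and did not exceed 2.69 CPM. Sntn, a protein of the ciliary tip, had a median of 0 CPM and a maximum of 0.252 CPM. Among the factors that start multiciliation, Ccno had a median of 0 CPM and a maximum of 0.0537 CPM, and Mcidas had a median of 0.0224 CPM and a maximum of 0.467 CPM. What these starting factors show for cells that already carry cilia was not tested. Of 81 listed motile cilia genes with other names, 49 passed the mean. Ccdc39 and Hydin were among them, with medians of 9.7 and 6.62 CPM. Other listed genes of ependyma were present: 12 of 13 non-cilia genes passed the mean, where 15536 of all 38354 genes did. Rarres2, a secreted chemoattractant, ran from 4.07 over a median of 14.0 to 63.3 CPM, while Mia did not pass, with a median of 0.151 CPM. Several of the listed genes, such as Aqp4 and Gja1, are also made by astrocytes, and Enkur is also on the motile cilia list. Foxj1 itself was present in every library. In bulk tissue, fewer cells of a type and less RNA per cell cannot be told apart.

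Promoter windows are shown for the genes on which the results turn: Dnah12 and Drc1, the pair that varied most closely together, Dnah2, an inner-arm dynein of the same block, and Cfap20dc, the gene that went most clearly the other way. Each line gives the 250 bases before the transcript start, 5′ to 3′, from RefSeq (GRCr8). Capitals mark matches to GTTGCC or GTTGCT on either strand, 2 forms of the core read by RFX factors. The windows lie at chr16:1944502-1944751 (plus strand), chr6:31779257-31779506 (minus), chr10:54766027-54766276 (minus) and chr15:18661312-18661561 (plus). The start site used is the outer end of the gene for Cfap20dc, and lies inside the gene by 11976 bases for Dnah12, 740 bases for Drc1 and 476 bases for Dnah2.
Dnah12: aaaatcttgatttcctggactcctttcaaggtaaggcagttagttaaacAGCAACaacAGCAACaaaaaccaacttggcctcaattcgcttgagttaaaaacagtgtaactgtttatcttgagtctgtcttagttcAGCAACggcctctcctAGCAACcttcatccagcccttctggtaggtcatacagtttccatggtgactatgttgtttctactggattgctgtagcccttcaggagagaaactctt
Drc1: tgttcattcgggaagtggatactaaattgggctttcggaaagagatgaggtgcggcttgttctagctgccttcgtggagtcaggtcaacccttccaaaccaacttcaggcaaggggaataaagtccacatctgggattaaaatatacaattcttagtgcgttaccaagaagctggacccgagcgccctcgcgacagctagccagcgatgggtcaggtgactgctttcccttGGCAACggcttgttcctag
Dnah2: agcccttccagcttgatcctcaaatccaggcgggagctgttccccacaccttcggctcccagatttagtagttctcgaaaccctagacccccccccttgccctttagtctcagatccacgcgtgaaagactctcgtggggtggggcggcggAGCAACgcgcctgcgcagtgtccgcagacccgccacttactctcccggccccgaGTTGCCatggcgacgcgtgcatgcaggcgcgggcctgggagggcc
Cfap20dc: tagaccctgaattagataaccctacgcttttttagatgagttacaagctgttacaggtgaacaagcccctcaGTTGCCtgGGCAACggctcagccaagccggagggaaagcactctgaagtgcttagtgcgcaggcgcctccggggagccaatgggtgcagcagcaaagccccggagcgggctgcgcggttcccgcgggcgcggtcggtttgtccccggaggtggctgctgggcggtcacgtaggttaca
The Dnah12 window holds 4 matches, those of Dnah2 and Cfap20dc 2 each and that of Drc1 1. Over the full window of 300 bases (250 before to 50 after the start), 45 of the 53 genes had a RefSeq promoter, and 30 of these (66.7%) held GTTGCC or GTTGCT on either strand. Over all 27457 RefSeq promoters the share was 25.1%. Taken singly, GTTGCC was in 18 of 45 (40.0%) against 12.2% of all promoters, and GTTGCT in 21 of 45 (46.7%) against 14.7%. The forkhead form GTAAACA, read by FOXJ1 relatives, was in 2 of 45 (4.44%) against 3.76%. The cilia-named genes under the mean held either RFX form in 14 of 27 windows (51.9%). Promoters with either RFX form belonged to genes with a median Pearson r with Foxj1 of 0.407, and those without to genes with a median of 0.393. For GTTGCC alone the medians were 0.327 with and 0.454 without, and for GTTGCT alone 0.407 and 0.377. These letters were chosen after several forms had been tried, a match is not a site of binding, and the counts are a description.

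Foxj1, at position 102069945 of chromosome 10, ran from 4.19 CPM (replicate 70) over a median of 11.0 CPM to 34.6 CPM (replicate 95). No library with Th lacked it. Levels of the 53 genes cannot be set against each other per length, because the reference used here gives no transcript lengths, so each gene is compared with itself across libraries. The median of the genes' SDs was 0.33 on the log2(CPM + 1) scale, against 0.258 over all 15536 genes that passed the mean, and 39 of the 53 lay above the latter.

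**Figure D1:**
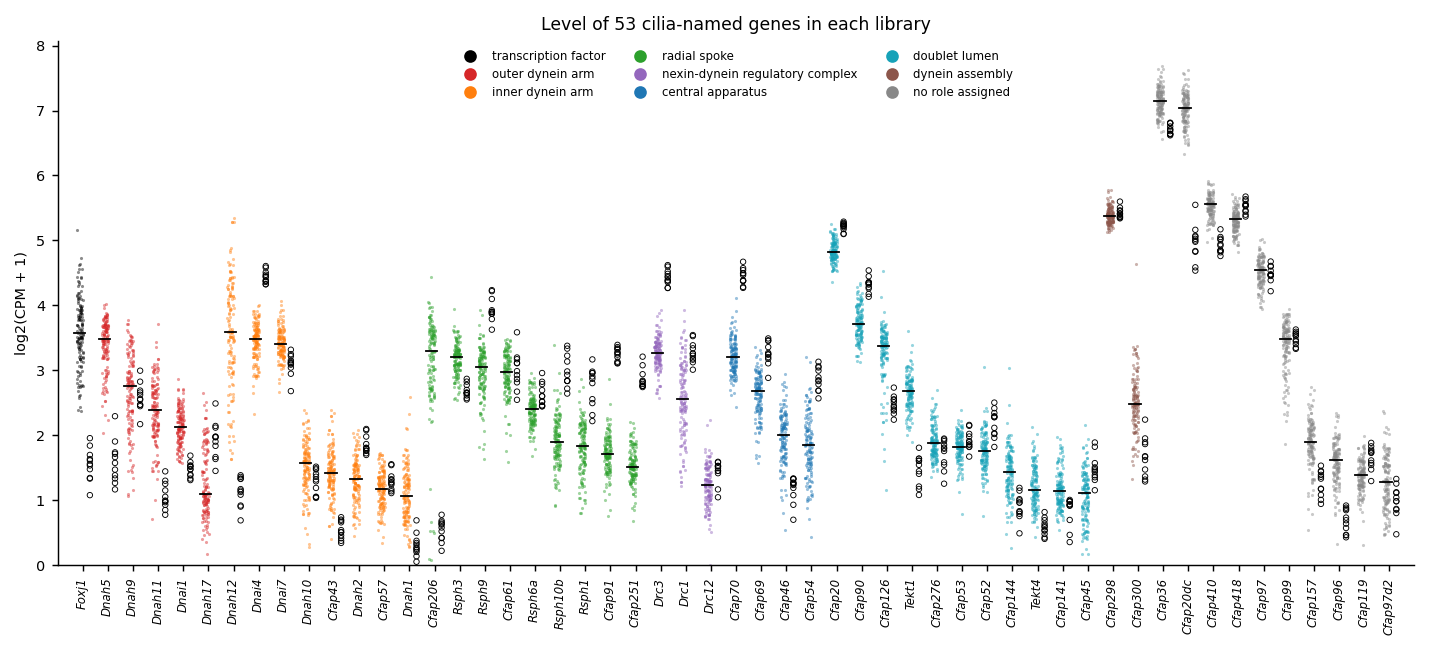
Level of each of the 53 genes on the log2(CPM + 1) scale, grouped by role. Small points are the libraries with Th, bars their medians, and open circles the 11 libraries without Th; Foxj1 and Dnah12 spread widely, and the open circles of Foxj1, Dnah12, Tekt1 and Cfap20dc lie under all points.

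The widest gene was Dnah12, a heavy chain of the inner dynein arms (chromosome 16, position 1932776). It ran from 2.09 CPM over a median of 11.0 CPM to 39.8 CPM in replicate 95, with an SD of 0.83 (log2 scale). Cfap206, a protein at the base of the radial spokes (chromosome 5, position 54095438), was next with an SD of 0.75. Its spread came in 2 separate ranges: 7 libraries lay between 0.0527 and 1.26 CPM, and all others between 3.59 and 20.7 CPM. Dnah9, an outer-arm heavy chain, had an SD of 0.605 (1.09 to 12.6 CPM, median 5.78 CPM). Drc1, a core subunit of the nexin-dynein regulatory complex (chromosome 6, position 31779996), had an SD of 0.58 (1.32 to 14.2 CPM, median 4.89 CPM). The narrowest were Cfap298, a dynein assembly factor, with an SD of 0.13 around a median of 40.4 CPM, and Cfap20, a doublet protein at the inner junction, with 0.16 around 27.2 CPM. Cfap410, Cfap418 and Cfap20 stayed within 30.4 to 59.1, 27.2 to 51.3 and 19.5 to 37.1 CPM.

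The 53 genes varied together only in part. The mean Pearson r over their 1378 pairs was 0.173 (median 0.175), against 0.0503 (median 0.0519) over all pairs of the 15536 genes. Of these pairs, 166 (12.0%) had r above 0.5, against 8.47% of all gene pairs, and 10 exceeded 0.7. In 361 pairs (26.2%) r was negative, against 43.2% of all gene pairs. The 32 genes listed as primary cilia genes, which include intraflagellar transport genes, had a mean r of 0.223, and 49 other motile cilia genes 0.0916. The 16 dopamine neuron genes reached 0.683 and the 14 genes of meningeal fibroblasts 0.909 over the same libraries. Scaling the libraries by the median of ratios instead of by their totals lowered the mean r of the 53 genes to 0.0912. The mean over all gene pairs with that scaling is not given here.

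Roles differed in how closely their genes kept together. The 8 inner-arm genes had a mean r of 0.411 with no negative pair, the 4 of the central apparatus 0.37 and the 3 of the nexin-dynein regulatory complex 0.313. The 9 radial spoke genes had 0.188, the 5 outer-arm genes 0.174 and the 11 genes of the doublet lumen 0.101, with 17 of 55 pairs negative. These values are descriptions of small groups and no test was made between them.

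Within the set, a small block stood out by its size of r. Dnah12 and Drc1 had r = 0.90 (rho = 0.91), and r was 0.898 in the decimal and 0.901 in the hexadecimal libraries. Dnah9 had r = 0.84 with Dnah12 and 0.83 with Drc1. Cfap54, a central apparatus protein, had r = 0.74 with Dnah12, and Cfap69 of the same structure 0.74 with Dnah9. For each of these pairs the permutation p was 1e-05 for r and for rho, the smallest that 100000 resamples can give. When the 2 libraries with the most extreme values were left out, r of these pairs lay between 0.726 and 0.901, and within formats between 0.637 and 0.901. The block was not closed to other genes. Outside the set, Dnah12 had r = 0.9 with Acacb, 0.889 with Acsm5, 0.88 with Tnc and 0.855 with the astrocyte gene Gfap. Drc1 had 0.84 with Adamts9 and 0.838 with Acacb. Over the whole table, the nearest gene was another of the set for only 3 of the 53 genes. On the negative side, Cfap90, a doublet protein, had r = -0.60 with the outer-arm gene Dnah11. Cfap20dc had r = -0.59 with Dnah11 and -0.53 with Dnah12.

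**Figure D2:**
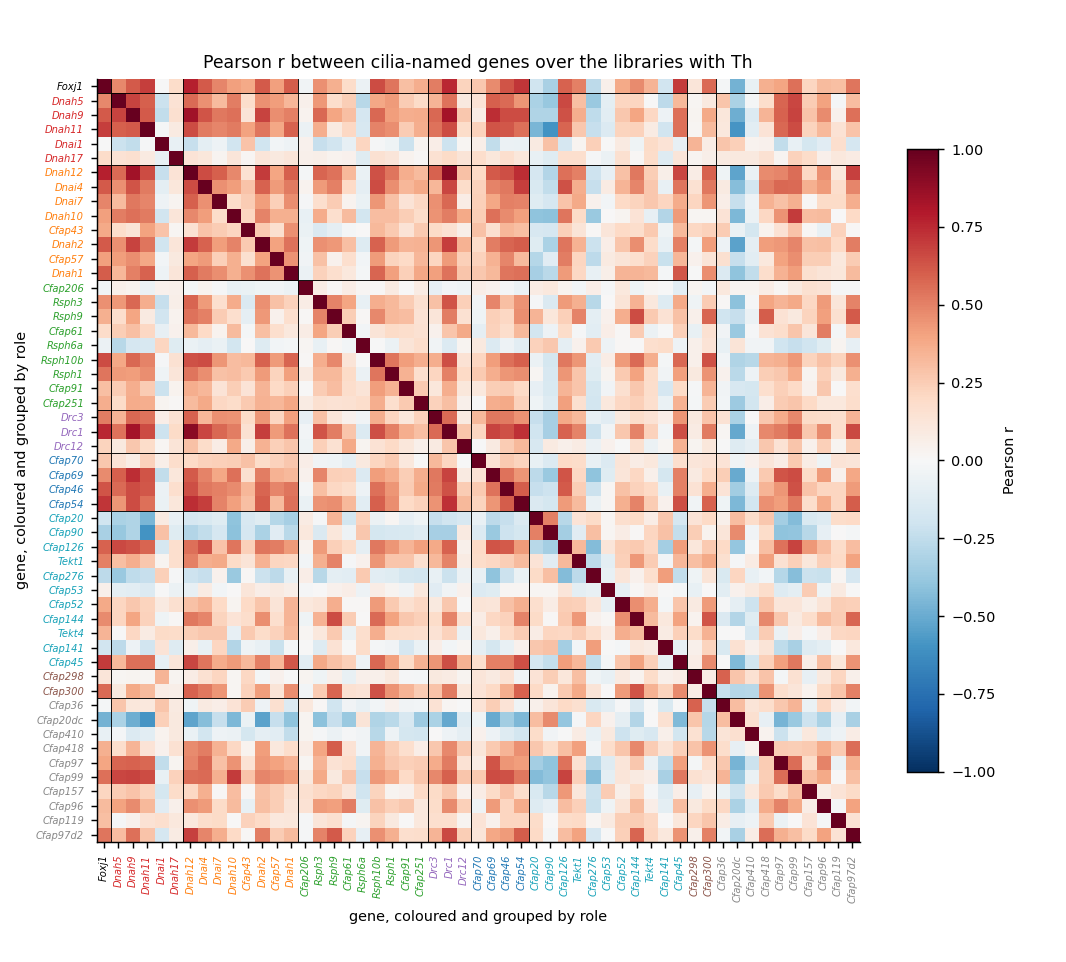
Pearson r between all pairs of the 53 genes over the libraries with Th, ordered by role and, within a role, by median level. Red blocks join Foxj1, dynein arm, Drc1 and central apparatus genes, while the rows of Cfap206 and Dnai1 are near 0 and that of Cfap20dc is mostly negative.

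Against Foxj1, the transcription factor of the programme, most of the genes rose. A linear fit (limma, with identifier format as a covariate and Benjamini-Hochberg adjustment over all genes) gave a slope in log2 units per log2 unit of Foxj1. Of the other 52 genes, 40 rose, 5 fell and 7 did not pass an adjusted p of 0.05. Rising was also the rule among all genes: 52.4% of the 15535 genes tested rose with Foxj1 and 21.3% fell. The median slope of the 52 genes was 0.22, against 0.085 over all genes. Within formats 24 rose and 0 fell in the 53 decimal libraries, and 38 rose and 5 fell in the 87 hexadecimal ones. With median-of-ratios scaling 34 rose and 8 fell. That scaling moved single libraries by -0.172 to 0.236 log2 units, and the shift had r = -0.671 with Foxj1. Shares of all genes are not given for the fits within formats or with that scaling.

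Inner dynein arm genes all passed, 8 of 8 upward. Dnah12 had the steepest slope of the set, 1.20 ± 0.083 (SE, n = 140 libraries; limma adjusted p = 2.33e-27), and r = 0.78 with Foxj1. Dnah2 followed Foxj1 with a slope of 0.39 ± 0.043 while its level stayed between 0.37 and 3.24 CPM. Dnai4, an intermediate chain of the inner arms, ran from 3.99 to 15.0 CPM and rose by 0.34 ± 0.037. Dnah1, Dnah10, Dnai7, Cfap43 and Cfap57 rose with slopes of 0.47, 0.30, 0.22, 0.26 and 0.22.

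Of 5 outer-arm genes 4 rose. Dnah9 had a slope of 0.69 ± 0.074 and Dnah11 one of 0.63 ± 0.056, with Dnah11 between 0.638 and 12.2 CPM (median 4.25 CPM). Dnah5, whose loss is a common cause of immotile cilia, had 0.34 ± 0.052 around a median of 10.1 CPM, but its slope was 0.047 in the decimal and 0.41 in the hexadecimal libraries (interaction in limma, adjusted p = 0.0396). Dnah17 rose by 0.17 ± 0.082 (limma adjusted p = 0.0494), close to the threshold. Dnai1, the outer-arm intermediate chain, did not pass, with a slope of -0.0033 ± 0.045.

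Of the 3 genes of the nexin-dynein regulatory complex all rose. Drc1 had a slope of 0.80 ± 0.060 (limma adjusted p = 8.57e-25) and Drc3 one of 0.23 ± 0.033. Drc12, once called Ccdc153, was low (0 to 3.7 CPM, median 1.34 CPM) and rose by 0.14 ± 0.050. In the central apparatus 4 of 4 rose: Cfap54 by 0.65 ± 0.054, Cfap46 by 0.48 ± 0.051, Cfap69 by 0.29 ± 0.046 and Cfap70 by 0.14 ± 0.042.

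Radial spoke genes rose in 7 of 9 cases. Rsph10b had the steepest slope, 0.47 ± 0.046, followed by Rsph1 with 0.39 ± 0.054. Rsph9, at 2.09 to 14.2 CPM, rose by 0.27 ± 0.057. Rsph6a (-0.026 ± 0.037) and Cfap206 (-0.045 ± 0.12) did not pass. The dynein assembly factor Cfap300 rose by 0.49 ± 0.057, and Cfap298 did not pass (0.026 ± 0.020).

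The doublet lumen was divided, with 6 genes up and 4 down of 11. Cfap45 rose by 0.51 ± 0.045, Cfap126 by 0.49 ± 0.058, Cfap144 by 0.35 ± 0.053, Tekt1 by 0.26 ± 0.038, and Cfap52 and Tekt4 by 0.21 and 0.20. Cfap90 (7.71 to 19.2 CPM) fell with Foxj1 by 0.16 ± 0.039, Cfap276 by 0.12 ± 0.038, Cfap141 by 0.10 ± 0.046 and Cfap20 by 0.057 ± 0.026. The slope of Cfap20 was 0.12 in the decimal and -0.099 in the hexadecimal libraries, and that of Cfap141 was 0.0910 in the decimal ones. Cfap53 did not pass (0.032 ± 0.037). Among genes with no assigned role Cfap99 and Cfap97d2 rose by 0.40 and 0.42, with Cfap99 at 0.016 in the decimal and 0.49 in the hexadecimal libraries, and Cfap20dc fell by 0.22 ± 0.034 (limma adjusted p = 2.94e-09). Cfap36 and Cfap410, both well expressed, did not pass.

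Over the 52 genes the median r with Foxj1 was 0.386, against 0.206 over all genes, and 18 had r above 0.5. With Benjamini-Hochberg adjustment over the 52, permutation p passed 0.05 for 40 positive and 5 negative values of r, and for 39 positive and 4 negative values of rho. Pearson and Spearman values differed by at most 0.086, and leaving out the 2 libraries farthest from the Foxj1 median, replicates 95 and 70, moved r by at most 0.12. Within formats, r was above 0 in both for 41 genes and below 0 in both for 5, with opposite signs for the others, and its median was 0.321 in the decimal and 0.445 in the hexadecimal libraries.

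**Figure D3:**
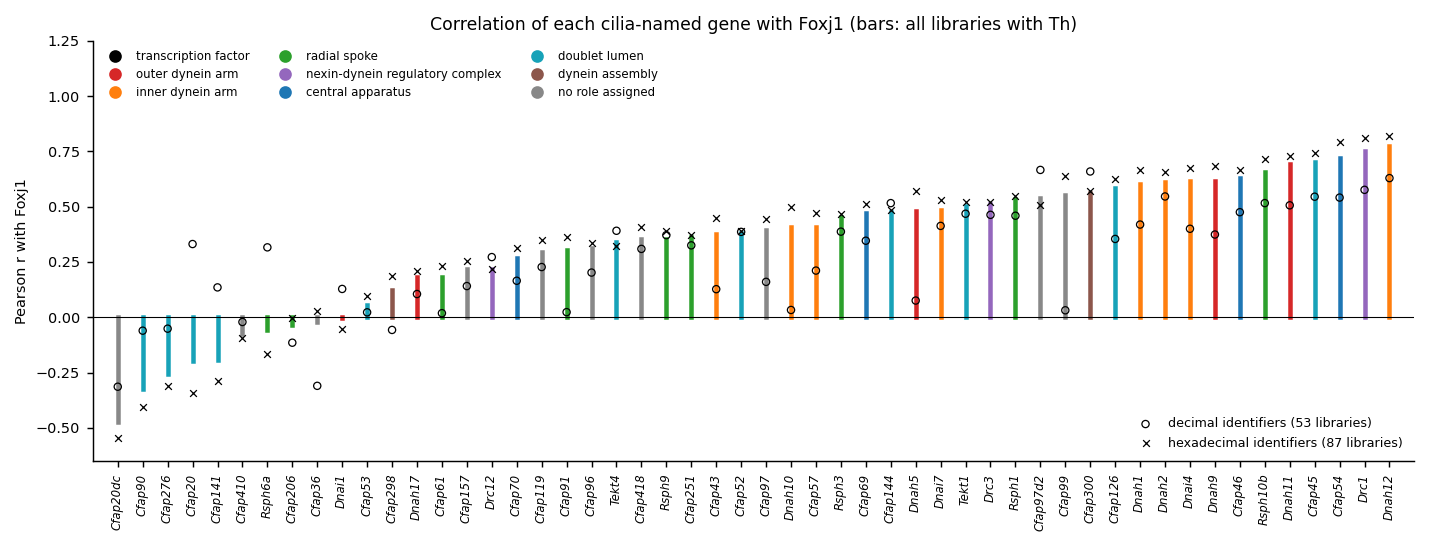
Pearson r of each of the other 52 genes with Foxj1, as bars coloured by role (all libraries with Th), with circles for the decimal and crosses for the hexadecimal libraries. Dnah12 and Drc1 are at the right end and Cfap20dc at the left, and 6 genes (Cfap20, Cfap141, Rsph6a, Dnai1, Cfap36 and Cfap298) lie on opposite sides of 0 in the 2 formats.

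Markers of other cell types moved with Foxj1 too. Outside the set, the highest r belonged to Slc12a4, a potassium-chloride cotransporter (0.891), Aldh1l1, an astrocyte enzyme (0.891), and Cybrd1 (0.868), and the axonemal gene Dnali1, which codes for an inner-arm light chain, had 0.861. Gfap and Aqp4, the astrocyte filament and water channel, had 0.840 and 0.834. Ranked among all genes by r with Foxj1, Dnah12 was at place 94 and Drc1 at place 154. Aldh1l1 ran from 21.4 to 165 CPM and Gfap from 209 to 4350 CPM. Both were highest in replicate 95, which also held the highest value of 7 of the 53 genes. The share of all genes that are highest in that library is not given here. That library had 265 CPM of the collagen gene Col1a1, against a median of 55 CPM. The part of these other cell types in the relation to Foxj1 was not tested beyond 2 added fits. With an astrocyte score as covariate 36 genes rose with Foxj1 and 3 fell, and with a meningeal fibroblast score 34 rose and 1 fell. The share of all genes in these 2 fits is not given here, so nothing particular to the set can be read from them.

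The scores of 15 gene lists, each the mean z-score of its genes that passed the mean and were not in the set, were set against Foxj1 over 140 libraries. The meningeal fibroblast list (14 of 14 genes measured) had r = 0.75 (rho = 0.76), the list of non-cilia genes of ependyma 0.767 (rho = 0.777) and the astrocyte list 0.634 (rho = 0.662). In decimal and hexadecimal libraries r was 0.635 and 0.817 for the meningeal, 0.767 and 0.782 for the ependyma and 0.467 and 0.712 for the astrocyte list. The ependyma list (12 of 13 genes) shares Aqp4 and Gja1 with the astrocyte list and Enkur with the motile cilia list. Other motile cilia genes had r = 0.739, multiciliation factors 0.719 through 7 of 16 genes, endothelium 0.662, primary cilia genes 0.554, microglia 0.442 and red cells 0.44. The score of multiciliation factors includes Rfx2, Rfx3 and Rfx4. Mcidas, Ccno, Gmnc, Myb and Deup1 lay under the mean and are not in it. The choroid plexus score likewise lacks Ttr, Folr1 and Clic6. Choroid plexus genes had r = 0.596 (rho = 0.776; 0.646 and 0.606 by format) and neuron genes r = -0.68 (rho = -0.642; -0.574 and -0.713). All of these passed with adjusted permutation p = 1.36e-05 for r. Tanycytes (0.333; adjusted permutation p = 0.000104) and oligodendrocytes (-0.328; 8.75e-05) also passed, though not in the decimal libraries alone, and dopamine neurons (0.0661; 0.468) and cortical neurons (-0.00814; 0.925) did not.

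The same lists were set against each of the 53 genes, 795 values in all. The highest r of a gene was with the other motile cilia genes for 14 of the 53, with the primary cilia genes for 12, and with non-cilia genes of ependyma or with neuron genes for 5 each. Dnah9 had r = 0.781 with the primary cilia score, Cfap99 0.706 and Cfap69 0.702, each above its r with Foxj1. In all, 29 of 52 genes had a higher r with the primary cilia score than with Foxj1, and the median r with that score over the 53 genes was 0.415. The score is a mean over 32 genes and Foxj1 is a single gene, so these values of r are not like for like. The score includes intraflagellar transport genes, and which kind of cilium its genes serve in this tissue was not tested. Cfap61, a radial spoke protein, was highest with the dopamine neuron genes (r = 0.54, rho = 0.473; 0.476 in the decimal and 0.588 in the hexadecimal libraries). These named values of r passed with adjusted permutation p = 3.41e-05 over the 795.

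Cfap20dc, a gene with no assigned role, varied with oligodendrocyte genes. It ran from 79.1 CPM over a median of 130 CPM to 196 CPM (replicate 130) and had r = 0.866 (rho = 0.86) with the oligodendrocyte score, 0.867 in the decimal and 0.864 in the hexadecimal libraries and 0.858 when the 2 libraries with the most extreme scores were left out. The adjusted permutation p was 3.41e-05 for r and 3.46e-05 for rho. Of the 14 oligodendrocyte genes, Mog, a surface protein of myelin, had the highest r with it (0.914), and it was also the nearest of all 15536 genes. Mbp (0.818), Gjb1 (0.79) and Fa2h (0.758), all myelin genes, were also high, and Ermn was lowest (0.0404). Over the whole set 28 of the 53 genes overlap another gene, Cfap20dc among them (3 others), and whether reads were assigned by strand is not stated. The positions of Mog and Cfap20dc are on different chromosomes.

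For Cfap206, r with Foxj1 was -0.033 (rho = 0.050), the median r with the other 52 genes was 0.018, and the nearest gene over the whole table, Rwdd4, had r = 0.369. Its highest r with a list was that with dopamine neuron genes, which did not pass (0.144; adjusted permutation p = 0.127), while rho did (0.247; 0.00683). That r was 0.326 in the decimal and 0.0512 in the hexadecimal libraries. The 7 low libraries, replicates 7, 21, 82, 97, 98 and 100 among them, carry identifiers of both formats and have totals of 19.0 to 35.9 M counts. Foxj1 in them ran from 7.38 to 23.8 CPM, inside its range elsewhere. The lowest 2, replicates 97 (0.0527 CPM) and 21 (0.071 CPM), are under the level that 3 counts give in the smallest library.

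**Figure D4:**
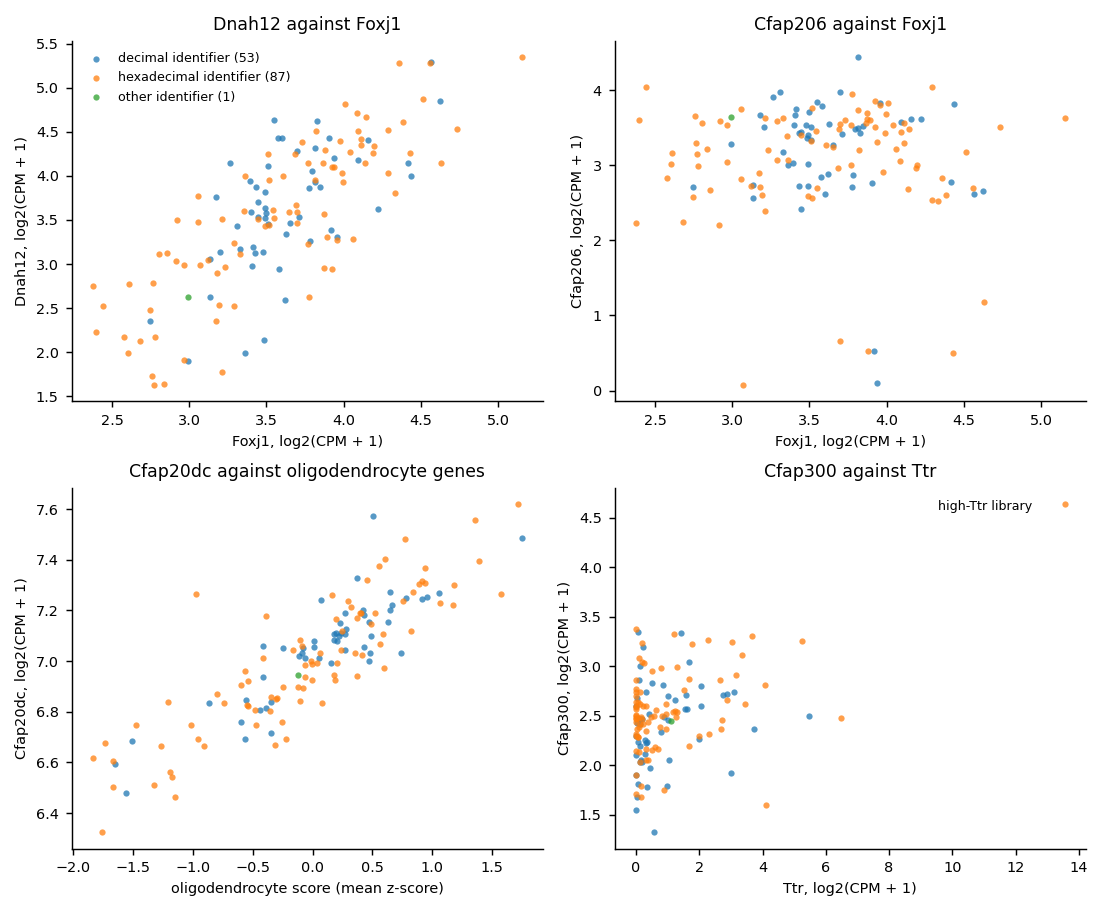
Levels on the log2(CPM + 1) scale in the libraries with Th, 1 point each, coloured by identifier format: Dnah12 and Cfap206 against Foxj1, Cfap20dc against the oligodendrocyte score (mean z-score) and Cfap300 against Ttr. Dnah12 rises with Foxj1 (r = 0.78), 7 libraries lie low in Cfap206, Cfap20dc tracks the score (r = 0.866), and 1 library stands alone at high Ttr.

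The relation to choroid plexus, the secretory tissue in the ventricles whose cells make transthyretin, was fitted next. Ttr had a median of 0.277 CPM and a maximum of 12000 CPM in 1 hexadecimal library, the one with the smallest total, where the next library had 88.3 CPM. The same library, called the high-Ttr library below, held the highest Kl (195 CPM) and Folr1 (60.4 CPM), both choroid plexus genes, and lay 8.15 SDs from the mean of the choroid score. It held the highest value of 9 of the 53 genes: Cfap300 (23.9 CPM, next 9.4 CPM), Rsph9, Tekt4, Cfap144 (7.19 CPM, next 4.55 CPM), Cfap52 (7.26 CPM, next 4.36 CPM), Cfap91, Rsph10b (9.43 CPM, next 6.73 CPM), Cfap251 and Cfap126. The share of all genes that are highest in this library is not given here. Tmem212 was at 0 there, and Foxj1 was at 15.7 CPM, above its upper quartile of 14.3 CPM and under its highest value of 34.6 CPM.

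The choroid score holds the 10 of 19 listed genes that passed the mean. Ttr, Folr1 and Clic6 lay under the mean and are not in it. Per SD of this score, 32 of the 53 genes rose, 3 fell and 18 did not pass, where 31.8% of all 15536 genes rose and 14.5% fell (limma, adjusted p of 0.05). Their median slope was 0.088 log2 units per SD, against 0.020 over all genes. Dnah12 rose by 0.42 ± 0.061, Foxj1 by 0.32 ± 0.036, Cfap300 by 0.31 ± 0.028 (limma adjusted p = 3.63e-18), Drc1 by 0.28 ± 0.043, Cfap144 by 0.24 ± 0.026 and Rsph10b by 0.23 ± 0.026. Cfap20dc fell by 0.097 ± 0.019, Cfap90 by 0.061 ± 0.022 and Cfap36 by 0.044 ± 0.016. Without the high-Ttr library and the next farthest on this score, 37 genes rose and 2 fell. With median-of-ratios scaling 28 rose and 4 fell. In the decimal libraries 21 rose and 3 fell, and in the hexadecimal ones 29 and 2. Shares of all genes are not given for these alternative fits. The meningeal list rose with this score too, in 14 of 14 genes.

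With Foxj1 as a covariate, 8 of 52 genes rose with the choroid score and 4 fell; all 8 had also risen without the covariate, while 1 of the 4, Cfap36, had fallen. Cfap300 had a slope of 0.23 (limma adjusted p = 3.49e-08) in that fit, Cfap144 one of 0.19 (2.44e-06), Rsph9 0.14 (0.00219), Rsph10b 0.13 (0.000725), Cfap52 0.12 (0.00112) and Cfap91 0.095 (0.00931). Dnah12 (0.050; adjusted p = 0.541) and Drc1 (0.027; 0.657) did not pass. Dnai4 (0.076, limma adjusted p = 0.0128) and Cfap126 (0.10, 0.0334) also rose. Of the 8 genes that rose, all but Dnai4 are highest in the high-Ttr library, and leaving that library out changed which genes passed. Without it 10 rose and 1 fell. Cfap300 (0.15, limma adjusted p = 0.00486), Cfap144 (0.13, 0.00991), Rsph9 (0.13, 0.0255) and Dnai4 (0.091, 0.0174) still rose. Cfap126 no longer passed. Rsph10b (0.026; adjusted p = 0.654), Cfap52 (0.027; 0.629) and Cfap91 (0.00029; 0.996) did not pass, whereas Dnah12 (0.23; limma adjusted p = 0.0065) and Drc1 (0.14; 0.0308) rose. With a meningeal score in place of Foxj1 and all 140 libraries, 13 rose and 1 fell. Against Ttr alone 7 rose and 1 fell. The counts with a covariate or against Ttr have no share of all genes beside them. Cfap300 had r = 0.769 with Fxyd1, its nearest gene over the whole table, and next came the motile cilia gene Capsl (0.731).

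Against neuron genes most of the set fell. Per SD of a score of 21 neuron genes, 36 of the 53 fell, 5 rose and 12 did not pass (limma, adjusted p of 0.05), where 50.6% of all genes fell and 22.7% rose. Their median slope was -0.079 log2 units per SD, against -0.042 over all genes. Dnah12 fell by 0.46 ± 0.059, Foxj1 by 0.37 ± 0.033, Drc1 by 0.30 ± 0.042, Dnah9 by 0.27 ± 0.045 and Dnah11 by 0.26 ± 0.035. Cfap276 rose by 0.078 ± 0.020, Cfap90 by 0.074 ± 0.021, Cfap141 by 0.067 ± 0.025, Cfap20dc by 0.065 ± 0.020 and Rsph6a by 0.050 ± 0.020. In the decimal libraries alone the slope was below 0 for 4 of these, Cfap90 (-0.0067), Cfap141 (-0.0397), Cfap20dc (-0.0061) and Rsph6a (-0.0241). That of Cfap20dc was also below 0 against Th alone (-0.0158) and with Foxj1 added (-0.0310). The neuron list itself was loosely joined, with a mean r of 0.142 and 39.5% of its pairs negative. Scaled by median of ratios, 30 fell and 10 rose, and with Foxj1 as a covariate 3 fell and 5 rose of 52. In the decimal libraries 14 fell and 1 rose, and in the hexadecimal ones 34 and 6. Against Th alone 15 fell and 7 rose. Shares of all genes are not given for these alternative fits.

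**Figure D5:**
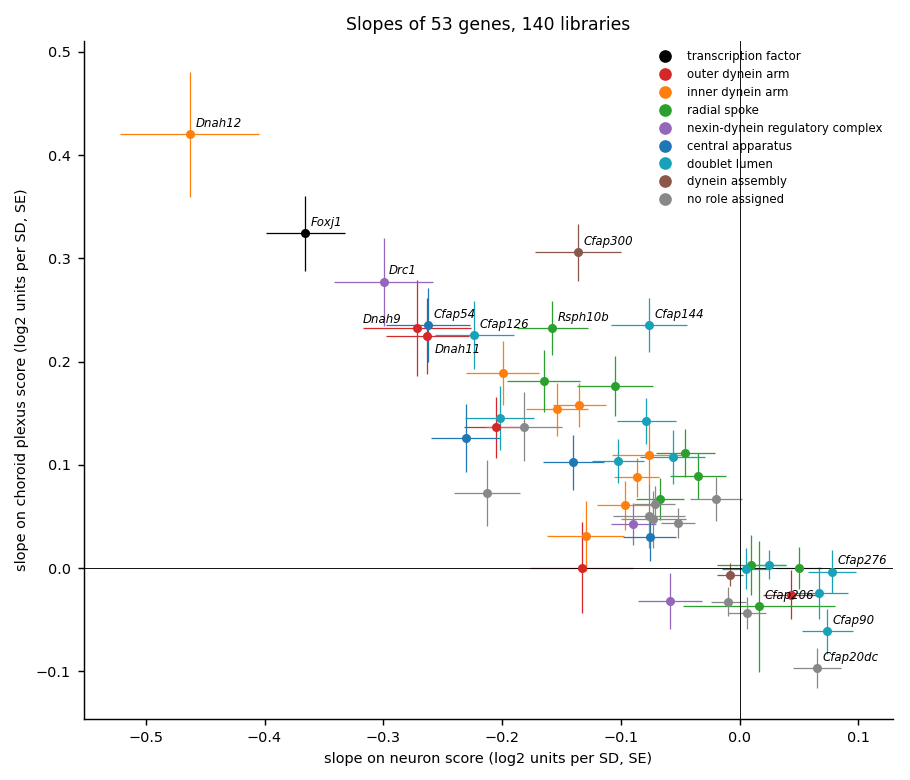
Slope of each of the 53 genes on the neuron score (horizontal) and on the choroid plexus score (vertical), in log2 units per SD with SE bars, coloured by role. Dnah12, Foxj1 and Drc1 lie at the upper left, Cfap300 and Cfap144 are high at neuron slopes nearer to 0 than those 3, and Cfap20dc and Cfap90 lie at the lower right.

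Between identifier formats few of the genes differed: 1 was higher and 6 were lower in hexadecimal libraries, where 14.3% of all genes were higher and 23.8% lower (limma, adjusted p of 0.05). Cfap276 was higher by 0.18 ± 0.043 log2 units (median 2.79 CPM against 2.38 CPM). Dnah5 was lower by 0.26 ± 0.065, with a median of 9.57 CPM against 10.5 CPM, Dnah9 by 0.25 ± 0.10, Cfap69 by 0.24 ± 0.057, Cfap99 by 0.22 ± 0.067, Cfap36 by 0.18 ± 0.033 and Cfap298 by 0.055 ± 0.022. The ranges of the formats overlapped for all 7. The slope on Foxj1 itself differed between formats for 3 of the 52 genes, Dnah5, Cfap99 and Cfap20, against 17.3% of all genes.

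Other genes of the pathway were counted in the same fits. Of 81 listed motile cilia genes with other names, 78 were in the file and 49 passed the mean; 33 rose with Foxj1 and 7 fell, 27 rose and 6 fell with the choroid score, and 9 rose and 27 fell with the neuron score. Over all genes 52.4% rose and 21.3% fell with Foxj1, 31.8% and 14.5% with the choroid score, and 22.7% and 50.6% with the neuron score. Capsl, a calcium-binding protein, had r = 0.811 with Foxj1 and 6.99 CPM at most, and Odad1 and Ccdc40, needed to dock dynein arms and set their spacing, had 0.663 and 0.628. Hydin, of the central apparatus, had 0.510 around a median of 6.62 CPM. Tppp3 and Tubb4b, both also made by other cells in large amounts, went the other way with -0.541 and -0.586. Rfx2, Rfx3 and Rfx4, the RFX factors of the list, had 0.773, 0.574 and 0.747, and Rfx4 ran from 13.1 to 43.1 CPM. Of 32 primary cilia genes, 21 rose with Foxj1 and 3 fell, beside the same 52.4% and 21.3% of all genes, and Ift88, an intraflagellar transport gene, had r = -0.222.

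The 32 genes under the mean included further axonemal parts. Their medians over the libraries with Th ran from 0 CPM (Cfap107 and Cfap221) to 0.975 CPM (Cfap100, which tethers inner arms). Dnai2 and Rsph4a, markers of outer arms and spoke heads, had medians of 0.859 and 0.586 CPM, and Rsph4a was highest, at 6.93 CPM, in the high-Ttr library. As a description, r with Foxj1 had a median of 0.217 over the 32, lay over 0.5 for 9 and below 0 for 7, with Tekt5l1 lowest at -0.223. The highest values were 0.689 for Cfap47, 0.665 for Tekt2, 0.661 for Cfap100, 0.617 for Cfap161 and 0.607 for Rsph4a.

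In the 11 libraries without Th, Foxj1 ran from 1.11 to 2.88 CPM, under all others. Dnah12 (0.611 to 1.61 CPM), Tekt1 (1.11 to 2.5 CPM) and Cfap20dc (22.2 to 45.8 CPM) also lay under the whole range of the others. By contrast Dnai4 (19.0 to 23.3 CPM), Drc3 (18.2 to 23.6 CPM), Cfap70 (18.3 to 24.5 CPM), Cfap91 (7.6 to 9.49 CPM) and Cfap251 (5.68 to 8.25 CPM) lay above it. In median, 26 of the 53 genes were higher in the 11 than in the rest. The share of all genes that differ in these ways is not given here, so nothing particular to the set can be read from this. No test was made, since these libraries go against their label. With them in the fit, the slope of Cfap20dc on Foxj1 was 0.40 in place of -0.22.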

How the data were processed

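Values for the libraries of the posterior ventral tegmental area were deposited by the authors on a log2 scale. Per the submitters' processing notes kallisto 0.48 was used; the genome build and strand setting are not given in the sources used here. The unit is stated nowhere and was taken from the values, which behave as log2(estimated count + 1): 0 stays 0, and 55.7% of back-transformed values above 0 and under 100 lie within 0.001 of a whole number. They were back-transformed, divided by the library total and expressed as log2(CPM + 1). Genes with a mean of at least 1 entered (15536 of 34551 with any count). All 53 genes' positions are an end of the RefSeq gene of the same symbol in GRCr8.

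Slopes came from limma 3.58.1 in R 4.3.3 (lmFit, eBayes with a mean trend), checked on simulated data, with identifier format as covariate and Benjamini-Hochberg adjustment over all genes. Correlations used numpy 2.4.6 and scipy 1.17.1 in Python 3.11.15, with two-sided permutation p from 100000 resamples. The p-values measure the spread between libraries, and points share library depth and composition. Whether each library comes from a single animal, and how the animals are related, is not given by the labels.

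The genes, the lists and the roles were chosen with earlier results of these data known. Genes named with full values were Foxj1, Drc12 and Tmem212, those with the highest and lowest r with Foxj1, the widest and narrowest SD, those nearest the mean of 1, those with the largest slopes on either score, the 15 genes outside the set nearest Foxj1, members whose slope differs between formats, and list genes. The clause of that rule on level per coding length could not be applied, since no coding lengths are in the reference used here. The nearest genes to Cfap20dc, Cfap206 and Cfap300, the other genes with a role, and the genes under the mean were named after their values were seen. Alternatives changed the pseudocount (0.5), the scaling, the filter, the libraries, the covariates, the anchor gene and the score. Shares over all genes are given for the main fits and not for the alternatives.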

Additional observations from a re-analysis of the deposited data

Results flagged for a closer look

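The slope on Foxj1 differed between identifier formats for 3 of the 52 genes by the interaction term of the limma fit over 140 libraries. For Dnah5 the slope in hexadecimal minus that in decimal libraries was 0.36 (limma adjusted p = 0.0396), from 0.047 in 53 decimal to 0.41 in 87 hexadecimal libraries, with r of 0.0755 and 0.57. For Cfap99 the difference was 0.48 (limma adjusted p = 0.0094), from 0.016 to 0.49. For Cfap20 it was -0.22 (limma adjusted p = 0.0138), from 0.12 to -0.099, so that the direction differed. The same term passed for 17.3% of all genes. What the formats stand for is not stated, and the part of depth or cell makeup in these differences was not tested.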

How the results depend on the processing

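The number of genes rising with Foxj1 (40 of 52) was 19 of 28 with a mean of at least 2, 24 in decimal libraries, 18 with Ccdc153 (Drc12) in place of Foxj1 and 5 with Tmem212. The number changing with the choroid score (35 of 53) was 19 of 29 with that filter, 8 against Ttr alone, 12 with Foxj1 added, 11 with Foxj1 added and the high-Ttr library left out, and 14 with the meningeal score added. The number changing with the neuron score (41 of 53) was 22 of 29 with that filter, 15 in decimal libraries, 22 against Th alone and 8 with Foxj1 added. The number differing between formats (7) was 20 with the libraries lacking Th. With those libraries, slopes on Foxj1 reversed for Rsph10b (-0.0226), Dnai4 (-0.0712), Rsph1 (-0.0230), Drc3 (-0.16), Rsph9 (-0.11), Cfap20dc (0.40) and Cfap141 (0.0180), choroid slopes for Cfap91 (-0.0203), Cfap20dc (0.0746) and Cfap36 (0.0049), the neuron slope of Cfap20dc (-0.0652) and the format difference of Dnah5 (0.0498). Against Tmem212, Rsph9 (-0.18) and Cfap20dc (0.0498) reversed, and against Ccdc153, Cfap90 (0.0711) and Cfap141 (0.0103). In decimal libraries, the slopes on Foxj1 of Cfap141 (0.0910) and Cfap20 (0.12), the neuron slopes of Cfap90 (-0.0067), Cfap141 (-0.0397), Cfap20dc (-0.0061) and Rsph6a (-0.0241), and r of Foxj1 with the dopamine (-0.182) and cortical (0.118) lists reversed. The cortical list had 0.00954 without 2 libraries. The neuron slope of Cfap20dc was -0.0158 against Th and -0.0310 with Foxj1 added. The cause was not tested, except that the higher filter and the decimal libraries leave fewer genes or samples. The reversals above cover the lists and a chosen group of genes in each comparison, not all 53. Of the other values for those genes or lists, 678 kept direction and side of the threshold and the rest kept direction only. Genes outside that group were not counted, and some reversed. With Foxj1 added, the choroid slopes of Cfap99 (-0.090) and Dnah10 (-0.10) were below 0 in place of 0.073 and 0.031. In decimal libraries, r with Foxj1 changed sign for Rsph6a, Dnai1 and Cfap298. The fit without the high-Ttr library, the covariates Foxj1 (neuron), astrocyte and meningeal scores and the splits of the list correlations were chosen after seeing the data. No paired analysis was possible because all libraries form 1 group.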
